A study of Mus musculus with 8 samples.

Results

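Quadriceps muscle holds fat cells between its fibers, and their messenger RNA is measured together with that of the fibers. 10 genes known as markers of white fat cells were followed in 8 muscle RNA libraries: Adipoq, Lep, Cfd, Retn, Plin1, Plin4, Cidec, Fabp4, Scd1 and Pparg. They were taken from the deposited expression values by gene name, and each name occurred once among the 47643 genes listed. The libraries came from the quadriceps of 8 C57BL/6 mice, 4 labelled Nup210-/- and 4 labelled Nup210+/+, with 1 library for each mouse. The Nup210-/- line lacks exon 2 of Nup210, a nuclear pore gene, in the whole body, after Hprt-Cre recombination of a floxed allele, so fat cells, fibers and blood cells all carry the deletion. The Nup210+/+ mice carry the intact gene, and the age and sex of the mice used for RNA are not given in the sources used here. Values are TPM, the transcripts of a gene per 1000000 transcripts of the library, corrected for transcript length. Read depth is not known from them, so no error is given for a single value, and the spread given with a mean is the SD over 4 mice.

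White fat cells store triglyceride in a large lipid droplet and secrete hormones into the blood. Pparg, together with the C/EBP factors, drives the differentiation of fat cell precursors and maintains the genes of the mature cell. Fat cells in muscle arise mainly from fibro-adipogenic progenitors, mesenchymal cells that lie between the fibers and expand when muscle is injured. Muscle fibers themselves keep small lipid droplets, coated by other members of the perilipin family, and use the fatty acids as fuel. In bulk RNA, a lower number of fat cells and a lower amount of a transcript in each fat cell cannot be told apart.

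The fat cell transcripts were present in all 8 libraries, and their sum ranged from 798 to 1073 TPM in the Nup210-/- libraries and from 772 to 2025 TPM in the Nup210+/+ libraries. The genotypes overlapped for each of the 10 genes, and none was called, that is, passed an adjusted p of 0.05 (limma with Benjamini-Hochberg adjustment over 14229 genes). Across all genes tested, 0.112% were called. 1 mouse stood apart: Nup210+/+ replicate 3 had the highest TPM of all 10 transcripts, by 1.09 to 1.95 times over the next highest library. Cidec, Retn, Fabp4 and Plin1 kept a nearly fixed ratio to Adipoq from library to library, while Pparg, Plin4 and Scd1 followed Adipoq less closely. Nup210 mRNA itself averaged 10.3 ± 1.38 TPM under the label Nup210-/- and 7.93 ± 2.06 TPM under the label Nup210+/+ (SD, n = 4; two-sided exact permutation p = 0.143). A value over all exons does not show the loss of exon 2, so every direction given here rests on the labels.

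The upstream sequences of the genes were read for letters known to be bound by C/EBP factors, which act with Pparg in fat cells. RefSeq promoters on GRCm38.p6, the build also called mm10, were at hand for 8 of the 10 genes, with 11 annotated starts. In the 250 bases before a start, the motif TTGCNNAA, read on both strands with no mismatch, occurred at 4 of these 11 starts and in 9.56% of all 32851 promoters of the same length. The 4 starts belong to 4 genes, 1 each of Lep, Plin1, Cidec and Pparg. Adipoq, Retn, Cfd and Plin4 had no match. The sequences before the 4 starts with a match are printed because they hold the motif. They run 5′ to 3′ on the strand of the gene, with the motif in capitals, and stop before the first annotated exon base. The Lep sequence lies at chr6:29059971-29060219 on the plus strand. The Plin1 sequence lies at chr7:79732904-79733026 on the minus strand and the Cidec sequence at chr6:113434765-113435014 on the minus strand. The Cidec window lies within the annotated gene, and the Cidec start farther upstream had no match. The Pparg sequence, before the most downstream of its 3 starts, lies at chr6:115421816-115422065 on the plus strand.
Lep: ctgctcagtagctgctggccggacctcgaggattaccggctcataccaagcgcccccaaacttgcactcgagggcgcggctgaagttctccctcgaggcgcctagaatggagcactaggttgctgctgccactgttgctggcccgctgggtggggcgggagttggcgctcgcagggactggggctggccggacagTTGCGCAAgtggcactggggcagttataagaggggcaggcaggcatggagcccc
Plin1: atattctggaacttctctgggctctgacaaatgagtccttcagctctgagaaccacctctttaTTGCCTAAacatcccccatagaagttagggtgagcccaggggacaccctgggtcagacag
Cidec: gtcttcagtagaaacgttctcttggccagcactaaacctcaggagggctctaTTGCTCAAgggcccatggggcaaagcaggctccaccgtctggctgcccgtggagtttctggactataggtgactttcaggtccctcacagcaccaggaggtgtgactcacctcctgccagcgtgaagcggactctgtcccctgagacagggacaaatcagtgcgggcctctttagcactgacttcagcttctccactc
Pparg: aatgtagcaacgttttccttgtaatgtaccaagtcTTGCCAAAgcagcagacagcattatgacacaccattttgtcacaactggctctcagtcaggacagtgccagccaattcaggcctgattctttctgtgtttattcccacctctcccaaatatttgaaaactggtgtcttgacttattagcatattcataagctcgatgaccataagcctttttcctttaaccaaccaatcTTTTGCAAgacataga
The motif begins 55 bases before the Lep start, 198 bases before the Cidec start, and 215 and 16 bases before the Pparg start. The Plin1 motif shown begins 187 bases before its start, and another lies 58 bases before it within an annotated exon. The direct repeat that Pparg and its partner Rxra are known to bind, AGGTCA followed by 1 free base and AGGTCA again, was searched on both strands with at most 2 mismatches. It occurred at 0 of the 11 starts and in 3.24% of all promoters. A match in letters describes these windows only and is not a measured binding site.

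Among the secreted products, Adipoq (ENSMUSG00000022878, chromosome 16, 23146536 to 23158028 of GRCm38) encodes adiponectin, a hormone made almost only by fat cells that raises insulin sensitivity. It was 58.8, 72.4, 51.8 and 46.2 TPM in Nup210-/- replicates 1 to 4 and 71.6, 51.7, 127 and 43.5 TPM in Nup210+/+ replicates 1 to 4. All 4 Nup210-/- libraries lay inside the range of the Nup210+/+ libraries, whose replicate 3 stood above every other library. The means were 57.3 ± 11.3 and 73.4 ± 37.6 TPM (SD, n = 4), and the log2 fold change was −0.15 (95% interval −0.75 to 0.44, adjusted p from limma 0.819). Fold changes are Nup210-/- over Nup210+/+ on the scale of log2(scaled TPM + 1), which understates the change of low transcripts.

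Lep (ENSMUSG00000059201, chromosome 6, 29060220 to 29073877) encodes leptin, the hormone that reports fat stores to the brain. It was 7.88, 7.68, 6.79 and 8.04 TPM in Nup210-/- replicates 1 to 4. In Nup210+/+ replicates 1 to 4 it was 14.0, 5.87, 24.8 and 5.66 TPM. The Nup210-/- libraries were within 1.18 times of each other and the Nup210+/+ libraries spread over 4.37 times, with replicates 1 and 3 above all Nup210-/- libraries and replicates 2 and 4 below them. The log2 fold change of Lep was −0.34 (95% interval −1.16 to 0.48, adjusted p from limma 0.696).

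Cfd (ENSMUSG00000061780, chromosome 10, 79890853 to 79892655) encodes adipsin, a secreted protease of the complement system. Its TPM were 173, 250.2, 195 and 110.04 in Nup210-/- replicates 1 to 4 and 182, 204, 378 and 164 in Nup210+/+ replicates 1 to 4. It was the exception among the 10 genes in having its lowest library in Nup210-/-, at replicate 4, so that the Nup210-/- range was not inside the Nup210+/+ range. Retn (ENSMUSG00000012705, chromosome 8, 3655770 to 3660110) encodes resistin, a hormone of mouse fat cells linked to insulin resistance. Its TPM were 30.4, 34.5, 31.5 and 27.5 in Nup210-/- replicates 1 to 4 and 41.4, 32.6, 80.9 and 26.2 in Nup210+/+ replicates 1 to 4. Replicate 3 of Nup210+/+ exceeded the next library by 1.95 times in Retn, the largest such step of the 10 genes. The log2 fold changes were −0.23 for Cfd and −0.31 for Retn, with limma adjusted p of 0.720 and 0.597. Without Nup210+/+ replicate 3 they were −0.0055 and −0.032. The Cfd estimate was also near 0, at −0.025, without Nup210-/- replicate 4, and was −0.39 without Nup210-/- replicate 2, while the Retn estimate was −0.49 without Nup210+/+ replicate 4.

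**Figure D1:**
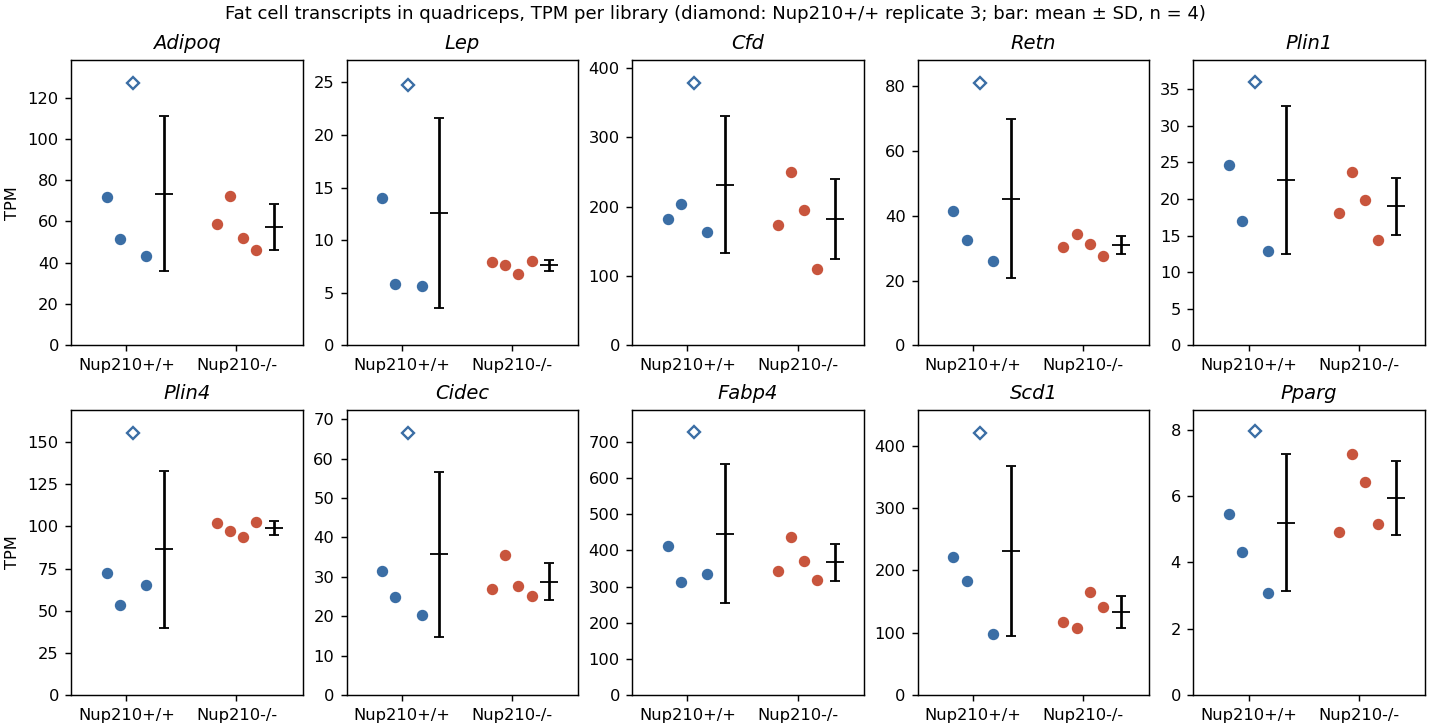
TPM of the 10 fat cell transcripts in each library (linear axis from 0), with Nup210+/+ in blue and Nup210-/- in red, the open diamond for Nup210+/+ replicate 3 and bars for the mean ± SD of 4 libraries. The diamond is the highest point in every panel, and the red points lie inside the range of the blue ones for all genes but Cfd.

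The lipid droplet genes differed in their pattern over the libraries. Plin1 (ENSMUSG00000030546, chromosome 7, 79720218 to 79732903), the perilipin that coats the droplet of fat cells and controls access of lipases, was 18.1, 23.6, 19.9 and 14.3 TPM in Nup210-/- and 24.7, 17.0, 36.0 and 12.9 TPM in Nup210+/+ replicates 1 to 4. Cidec (ENSMUSG00000030278, chromosome 6, 113424634 to 113435760), which enlarges droplets by fusing them, was 26.8, 35.7, 27.7 and 25.1 TPM in Nup210-/- and 31.5, 24.9, 66.4 and 20.3 TPM in Nup210+/+ replicates 1 to 4. As for Adipoq, Nup210+/+ replicate 3 was highest and Nup210+/+ replicate 4 lowest for both genes. Their log2 fold changes were −0.07 each (limma adjusted p of 0.916 for Plin1 and 0.928 for Cidec).

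Plin4 (ENSMUSG00000002831, chromosome 17, 56100591 to 56109803), a perilipin that coats small droplets and is also made in muscle fibers, was 102, 97.6, 93.7 and 103 TPM in Nup210-/- replicates 1 to 4. In Nup210+/+ replicates 1 to 4 it was 72.3, 53.2, 155 and 65.3 TPM. Every Nup210-/- library was above 3 of the 4 Nup210+/+ libraries and below replicate 3, and the Nup210-/- libraries varied by a coefficient of variation of 4.23%, or 7.51% after the scaling between libraries. Over all 8 libraries, the log2 fold change of Plin4 was 0.41 (SE 0.251, 95% interval −0.16 to 0.98, adjusted p from limma 0.479). Without Nup210+/+ replicate 3 it was 0.70 (95% interval 0.43 to 0.97), the groups no longer overlapped, and the limma adjusted p was 0.0838. Without Nup210+/+ replicate 2, the lowest library for Plin4, it was 0.23 (95% interval −0.29 to 0.74). Without replicate 3, 0.0141% of 14175 genes passed an adjusted p of 0.05, and 13.5% had groups that did not overlap, with 7.26% of all genes higher in Nup210-/-. Exons of Plin4 overlap those of Hdgfl2 on the opposite strand. The libraries were directional, and whether the estimates used the strand is not given in the sources used here.

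Of the genes for fatty acid handling, Fabp4 (ENSMUSG00000062515, chromosome 3, 10204088 to 10208576), the fatty acid carrier of fat cells that capillaries also make, was the most abundant transcript of the 10 per length. Its TPM were 342, 437, 371 and 318 in Nup210-/- replicates 1 to 4 and 411, 313, 728 and 334 in Nup210+/+ replicates 1 to 4. The log2 fold change of Fabp4 was −0.11 (95% interval −0.59 to 0.36, adjusted p from limma 0.835). Scd1 (ENSMUSG00000037071, chromosome 19, 44394455 to 44407879) encodes the desaturase that makes oleate. Its TPM were 118, 107, 165 and 141 in Nup210-/- replicates 1 to 4 and 221, 184, 420 and 97.5 in Nup210+/+ replicates 1 to 4. Replicates 1, 2 and 3 of Nup210+/+ were above all Nup210-/- libraries and replicate 4 was below them. Scd1 had the lowest estimate of the 10 genes, a log2 fold change of −0.53 (SE 0.333, 95% interval −1.28 to 0.22, adjusted p from limma 0.492), and its exact permutation p on TPM, 0.20, was the smallest of the 10. With 4 against 4 libraries no p under 0.0286 can be had. The Scd1 estimate was −0.22 (95% interval −0.79 to 0.36) without Nup210+/+ replicate 3. Without Nup210+/+ replicate 4 it was −0.84 (95% interval −1.42 to −0.26, adjusted p from limma 0.154). In that fit 1327 genes higher and 1354 lower in Nup210-/-, of 14243 tested, had an unadjusted limma p under 0.05.

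Pparg (ENSMUSG00000000440, chromosome 6, 115360951 to 115490399), the nuclear receptor that drives the fat cell program, had the lowest TPM of the 10. It was 4.91, 7.27, 6.41 and 5.16 TPM in Nup210-/- replicates 1 to 4 and 5.46, 4.30, 7.95 and 3.08 TPM in Nup210+/+ replicates 1 to 4. Replicate 3 of Nup210+/+ led the next library by only 1.09 times on TPM, and after the scaling between libraries Nup210-/- replicate 2 was highest. The log2 fold change was 0.29 (SE 0.193, 95% interval −0.15 to 0.73, adjusted p from limma 0.513). It was 0.45 (95% interval 0.08 to 0.83, adjusted p from limma 0.299) without Nup210+/+ replicate 3 and 0.14 without Nup210+/+ replicate 4. Without replicate 3, 937 genes higher and 908 lower in Nup210-/-, of 14175 tested, had an unadjusted limma p under 0.05.

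Of the 10 genes, 2 had a higher estimate in Nup210-/- and 8 a lower one, and their median log2 fold change was −0.13 against −0.01 over all 14229 genes tested. None reached even an unadjusted p of 0.05 in limma, which 14.2% of all genes did, and none had groups that did not overlap after scaling, as 9.38% of all genes had. Two-sided exact permutation tests gave p from 0.20 to 0.83 on TPM for the 10 genes. Without Nup210+/+ replicate 3 the median changed sign: 7 estimates were then higher and 3 lower in Nup210-/-, with a median of 0.11. Leaving out Nup210+/+ replicate 4, the lowest library for 7 of the 10, gave a median of −0.29 with 2 higher and 8 lower. Replicate 3 was the highest Nup210+/+ library for all 10 genes, so leaving it out raises every estimate. Leaving out the lowest Nup210+/+ library likewise lowers an estimate. The directions of these shifts were therefore set by the choice of library. None of the 10 was called without replicate 3 (smallest adjusted p from limma 0.0838) or without replicate 4 (0.154), where 0.0702% of all genes were called.

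**Figure D2:**
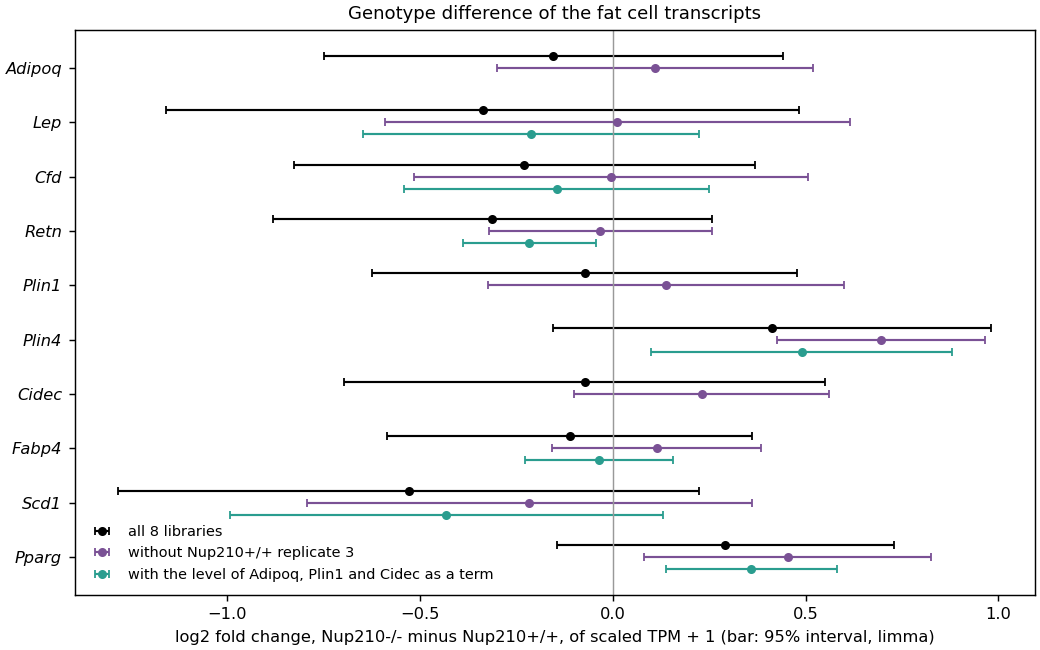
Log2 fold change of each fat cell transcript (Nup210-/- minus Nup210+/+, on log2(scaled TPM + 1), with 95% intervals from limma) with all 8 libraries in black, without Nup210+/+ replicate 3 in purple and with the library's fat cell level as a term in green (for the 7 genes outside that term). Black intervals all include 0. Without replicate 3, the highest Nup210+/+ library for every gene, the intervals of Plin4 and Pparg lie above 0, at estimates of 0.70 and 0.45. In that fit 937 genes higher and 908 lower in Nup210-/-, of 14175 tested, had an unadjusted limma p under 0.05.

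The coefficient of variation between mice was 4.23 to 31.8% in Nup210-/- and 40.0 to 71.6% in Nup210+/+. This gap rested in large part on replicate 3, without which it was 10.9 to 55.9% in Nup210+/+. Cfd then varied less in Nup210+/+ (10.9%) than in Nup210-/- (31.8%), and Fabp4 almost equally (14.7 and 14.0%). The greater spread was not tested. Without replicate 3, the Adipoq level in Nup210+/+ was 55.6 ± 14.5 TPM (SD, n = 3), near the 57.3 TPM of Nup210-/-. Nup210+/+ replicate 3 was the highest library for 33.7% of all tested genes on TPM and for 15.8% after scaling, so a first place there was common, but a lead of at least 1.5 times over the next library on scaled TPM was found for only 1.53% of the genes. Retn, Scd1, Cidec, Lep and Adipoq had such leads, of 1.79, 1.74, 1.64, 1.62 and 1.54 times. Other markers moved with this library. The summed level of 15 fibro-adipogenic progenitor and fibroblast genes was 2812 TPM in it against 1470 to 2010 TPM in the other 7 libraries, and that of 12 macrophage and leukocyte genes was 613 TPM against 267 to 457 TPM. The summed level of 12 muscle fiber genes was 107813 TPM, the lowest of the 8, against 112959 to 125092 TPM, while 12 endothelial genes summed to 216 TPM against 173 to 210 TPM. These sums were not scaled between libraries. On scaled TPM, replicate 3 was highest for 12 of the 15 progenitor and fibroblast genes and 9 of the 12 macrophage and leukocyte genes. It was highest for 2 of the 12 endothelial genes. Of 8 skin genes 6 were too low to be tested, and the list summed to 9.80 TPM in replicate 3 against 6.04 to 8.86 TPM in the other 7 libraries. On scaled TPM, 0 of the 2 tested were highest in replicate 3. The skin genes tested, Trp63 and Krt10, were 6.71 ± 0.974 and 1.34 ± 0.412 TPM in Nup210-/- and 5.97 ± 1.14 and 1.68 ± 0.555 TPM in Nup210+/+ (SD, n = 4). All 10 genes chosen for mammary gland and lymph node were below a mean of 0.5 TPM, and the most abundant, Krt18 and Cd3e, were at most 0.43 and 0.38 TPM in any library. The part of these cell types in the fat cell values was not tested.

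Each transcript was also divided by Adipoq within its library, a ratio in which any scaling between libraries cancels. Cidec was the closest follower: its ratio to Adipoq was 0.439 to 0.542 in all 8 libraries, a span of 1.23 times, although Cidec itself spanned 3.27 times. The ratios of Retn, Fabp4 and Plin1 spanned 1.34, 1.34 and 1.36 times. In Nup210+/+ replicate 3 these 4 ratios were 0.523, 0.637, 5.73 and 0.283, so these transcripts stood higher in this library in close to the same proportion as Adipoq. Cfd and Lep were looser, with spans of 1.66 and 1.84 times, and the genotypes overlapped for the ratios of all of these 6 genes.

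**Figure D3:**
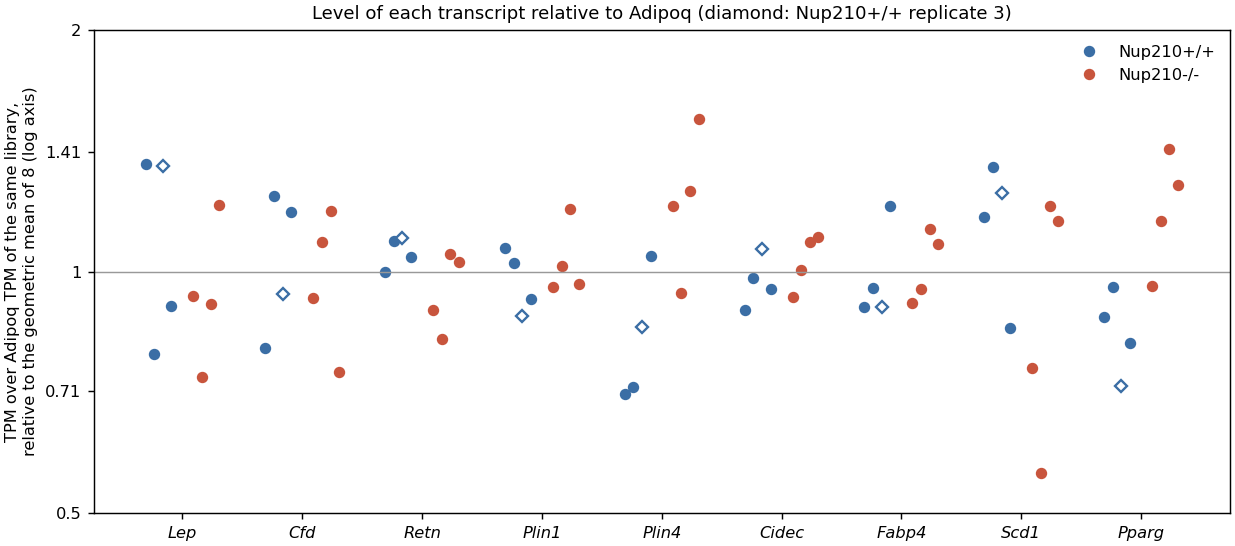
Ratio of each transcript to Adipoq in the same library, relative to the geometric mean of the 8 libraries (log axis), with Nup210+/+ in blue, Nup210-/- in red and the open diamond for Nup210+/+ replicate 3. Cidec, Retn, Fabp4 and Plin1 stay within narrow bands of 1.23 to 1.36 times, and Pparg is the gene whose red points all lie above the blue ones.

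3 genes departed from that pattern. The ratio of Pparg to Adipoq was 0.0835, 0.10, 0.124 and 0.112 in Nup210-/- replicates 1 to 4 and 0.0762, 0.0833, 0.0626 and 0.0708 in Nup210+/+ replicates 1 to 4. The groups did not overlap, though the lowest Nup210-/- and the highest Nup210+/+ library were almost level. The two-sided exact permutation test gave p = 0.0286, the smallest it can give, which is not adjusted for the number of ratios computed. These were the ratios of the 9 fat cell genes other than Adipoq and of Plin5, Fasn, Scd2, Ucp1 and Aoc3. Of all 14229 genes divided by Adipoq, 0.907% had groups that did not overlap, with 0.541% higher in Nup210-/-. The ratio of Plin4 was 1.35 to 2.22 in Nup210-/- and 1.01 to 1.5 in Nup210+/+, overlapping by 1 library of each genotype (exact permutation p = 0.0571). The ratio of Scd1 had the widest span, 2.41 times, and was 1.48 to 3.18 in Nup210-/- against 2.24 to 3.55 in Nup210+/+ (exact permutation p = 0.20).

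The same comparison was made for all genes by adding the mean log2 level of Adipoq, Plin1 and Cidec in each library as a term in limma, a choice made after the values were seen. For the other 7 genes, Pparg then had a log2 fold change of 0.36 (SE 0.0961, unadjusted p = 0.00588, adjusted p from limma 0.147). Plin4 followed at 0.49 (adjusted p = 0.225) and Retn at −0.22 (adjusted p = 0.224). The other estimates were −0.43 for Scd1, −0.21 for Lep, −0.15 for Cfd and −0.03 for Fabp4. None of the 7 was called at an adjusted p of 0.05, as 0.246% of all genes were, while 3 of them passed an unadjusted p of 0.05, against 15.8% of all genes. The slope on that fat cell level, in log2 units per log2 unit, was 1.26 for Lep, 0.97 for Scd1, 0.96 for Retn, 0.84 for Cfd, 0.77 for Plin4 and for Fabp4 and 0.67 for Pparg.

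**Figure D4:**
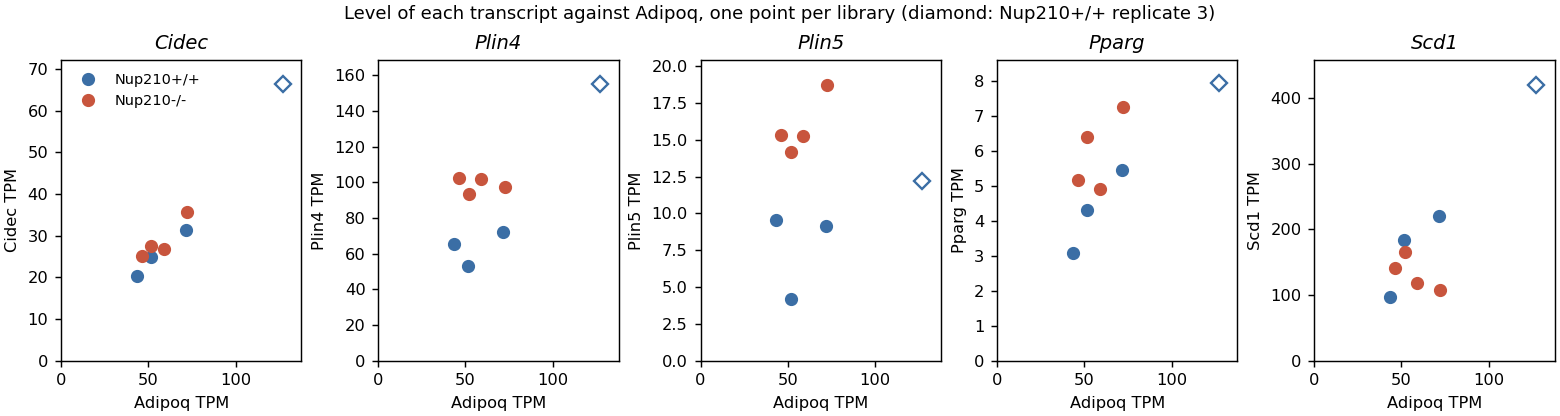
TPM of Cidec, Plin4, Plin5, Pparg and Scd1 against TPM of Adipoq (both axes linear from 0), 1 point per library, with Nup210+/+ in blue, Nup210-/- in red and the open diamond for Nup210+/+ replicate 3. Cidec points fall along 1 line, whereas at like Adipoq levels Plin4, Plin5 and Pparg of Nup210-/- lie mostly above those of Nup210+/+.

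Closely related genes were read beside the 10, since family members can be made by other cells. Of 16 paralogs, 11 were high enough to be tested, 2 with a higher and 9 with a lower estimate in Nup210-/- (median log2 fold change −0.13), and none was called at an adjusted p of 0.05. After scaling, 1 was higher in Nup210-/- without overlap and 3 were lower, Scd2, Fabp5 and C1qtnf2. Of all genes, 9.38% did not overlap in either direction. At an unadjusted limma p under 0.05, 1 paralog was higher and 3 were lower, against 14.2% of all genes. Plin5, the perilipin that ties droplets to mitochondria in muscle and other oxidative tissue, was 15.3, 18.7, 14.2 and 15.3 TPM in Nup210-/- and 9.17, 4.2, 12.2 and 9.53 TPM in Nup210+/+ replicates 1 to 4. The genotypes did not overlap, and the log2 fold change of Plin5, 0.95 (SE 0.246), was the highest of the paralogs (adjusted p from limma 0.169). Its ratio to Adipoq also did not overlap, at 0.259 to 0.331 in Nup210-/- and 0.0813 to 0.219 in Nup210+/+. Such ratios did not overlap for 0.907% of all genes. Plin2, the perilipin found on droplets of most cells, was 37.6 to 44.8 TPM in Nup210-/- and 42.7 to 59.3 TPM in Nup210+/+ (log2 fold change −0.13, adjusted p from limma 0.534).

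Scd2, a desaturase related to Scd1 that is made in many tissues, was 5.69, 6.93, 6.96 and 4.87 TPM in Nup210-/- and 14.8, 28.8, 9.55 and 6.74 TPM in Nup210+/+ replicates 1 to 4. Its highest library was Nup210+/+ replicate 2, not replicate 3, and its log2 fold change of −0.90 was the lowest of the paralogs (adjusted p from limma 0.290). It was −0.54 without Nup210+/+ replicate 2 and −1.16 without Nup210+/+ replicate 4. Replicate 2 also held RNA of granulocyte precursors, whose 6 genes summed to 382 TPM there and to 0.31 to 2.12 TPM in the other libraries. Their part in the Scd2 value was not tested. Fabp3, the fatty acid carrier of muscle fibers, was 830 ± 155 TPM in Nup210-/- against 686 ± 115 TPM in Nup210+/+ (SD, n = 4; log2 fold change 0.37, adjusted p from limma 0.384). Retnla, a relative of resistin made by alternatively activated macrophages and by fat tissue, was 110 ± 15.2 and 169 ± 71.7 TPM (SD, n = 4; log2 fold change −0.44, adjusted p from limma 0.407).

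Further genes enriched in fat cells were also highest in Nup210+/+ replicate 3 in most cases on scaled TPM, 15 of the 23 tested or 65.2%, against 15.8% of all tested genes. Of these 23 genes 9 had a higher and 14 a lower estimate in Nup210-/-, with a median log2 fold change of −0.19 and 0 past an adjusted p of 0.05 (limma; 1 at an unadjusted p of 0.05, against 14.2% of all genes). The median was −0.0055 without Nup210+/+ replicate 3 and 0.029 without Nup210-/- replicate 4. Car3, a carbonic anhydrase abundant in both fat and slow muscle fibers, was 1656 to 1903 TPM in Nup210-/- and 1820 to 2898 TPM in Nup210+/+ (log2 fold change −0.21, adjusted p from limma 0.399). Hp, which encodes the hemoglobin carrier haptoglobin, had the lowest estimate, −0.59 (adjusted p = 0.431), and Mest, a gene that marks fat cell enlargement, the highest, 0.39 (adjusted p = 0.265). Ces1d, a lipase of fat cells, was 128.8 TPM in replicate 3 and 53.1 to 91.8 TPM elsewhere.

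Genes known from brown fat differed among themselves in where they were high, and 2 of the 6 tested were highest in Nup210+/+ replicate 3 on scaled TPM. Ucp1, which uncouples respiration to make heat and defines brown fat, was 0.63, 4.16, 0 and 0 TPM in Nup210-/- replicates 1 to 4 and 0, 0, 8.55 and 0 TPM in Nup210+/+ replicates 1 to 4. Cidea, a droplet gene of brown fat, was 0.41, 2.68, 0.78 and 0.63 TPM in Nup210-/- and 0.41, 0.43, 5.64 and 0.35 TPM in Nup210+/+. Ucp1 and Cidea were highest in Nup210+/+ replicate 3 and next in Nup210-/- replicate 2, the libraries with the highest and next highest Adipoq. Nup210+/+ replicate 1, with almost the same Adipoq as Nup210-/- replicate 2 (71.6 and 72.4 TPM), had Ucp1 listed at 0. Of the 10 brown fat genes 6 were tested, 3 with higher and 3 with lower estimates and 0 past an adjusted p of 0.05 (limma; 2 at an unadjusted p of 0.05, which 14.2% of all genes reached). Dio2, which activates thyroid hormone, was lowest at −0.53 (adjusted p = 0.181) and Pank1, a coenzyme A synthesis gene, highest at 0.51 (adjusted p = 0.151). Cox8b, a respiratory chain subunit of brown fat and muscle, was the most abundant of the list, at 612 to 663 TPM in Nup210-/- and 644 to 807 TPM in Nup210+/+.

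Enzymes and carriers for fat synthesis, storage and breakdown, which fibers share with fat cells, were highest in Nup210+/+ replicate 3 in 6 of 22 cases on scaled TPM. Of the 22 genes 13 had higher and 9 lower estimates in Nup210-/- and the median log2 fold change was 0.05. None passed an adjusted p of 0.05, and 6 had an unadjusted p under 0.05 in limma, 4 higher and 2 lower, where 14.2% of all genes had one. The nearest was Gpam, the mitochondrial enzyme of the first step of triglyceride synthesis, at 63.4, 59.8, 71.2 and 65.1 TPM in Nup210-/- and 49.7, 47.2, 61.4 and 45.0 TPM in Nup210+/+ replicates 1 to 4. Its log2 fold change was 0.45 (SE 0.0754, adjusted p from limma 0.0614), and with library weights in limma the adjusted p was 0.0331. Acsl1, which activates fatty acids, had a log2 fold change of 0.42 and Pnpla2, the lipase that starts triglyceride breakdown, one of 0.32 (limma adjusted p of 0.245 and 0.282).

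Scd2 also had the lowest estimate of this list. Fasn, the fatty acid synthase, was 17.1 ± 6.95 TPM in Nup210-/- against 29.1 ± 12.4 TPM in Nup210+/+ (SD, n = 4; log2 fold change −0.62, adjusted p from limma 0.374). Acly, which supplies acetyl-CoA, was 9.80 ± 2.43 and 16.1 ± 5.95 TPM (log2 fold change −0.51, adjusted p from limma 0.407). Elovl6, which lengthens fatty acids, was 1.01 ± 0.587 and 2.41 ± 1.29 TPM (log2 fold change −0.65, adjusted p from limma 0.365). The most abundant of the list, Lpl and Slc2a4, the lipase and the glucose carrier that fat and muscle share, were 347 ± 50.1 and 315 ± 14.5 TPM in Nup210-/- against 370 ± 67.2 and 314 ± 53.4 TPM in Nup210+/+ (SD, n = 4).

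Factors that act with Pparg in fat cell differentiation gave 11 higher and 5 lower estimates among 16 genes tested, with a median of 0.10 and 0 past an adjusted p of 0.05 (limma; 3 at an unadjusted p of 0.05, against 14.2% of all genes). Cebpd, an early C/EBP factor that also answers to stress hormones, was 31.7 ± 4.65 TPM in Nup210-/- against 23.8 ± 5.92 TPM in Nup210+/+ (SD, n = 4; log2 fold change 0.51, adjusted p from limma 0.203). Rxra, the receptor that pairs with Pparg on DNA, was 46.3 to 50.9 and 43.3 to 47.0 TPM (log2 fold change 0.18, adjusted p from limma 0.201). Ebf2, which marks fat cell precursors and brown fat, was 2.37 to 2.76 TPM in Nup210-/- and 2.83 to 5.84 TPM in Nup210+/+, without overlap (log2 fold change −0.44, adjusted p from limma 0.223). After scaling, 4.6% of all genes were lower in Nup210-/- without overlap. Cebpb, the most abundant of the C/EBP genes here, was 55.5 ± 7.63 and 56.9 ± 8.65 TPM (SD, n = 4).

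On the receiving side, 12 receptors and partners of the secreted products gave 6 higher and 6 lower estimates, with a median of −0.02 and 0 past an adjusted p of 0.05 (limma; 2 at an unadjusted p of 0.05, against 14.2% of all genes). Adipor1, the main adiponectin receptor of muscle, was 114 ± 6.49 TPM in Nup210-/- against 104 ± 4.46 TPM in Nup210+/+ (SD, n = 4; log2 fold change 0.22, adjusted p from limma 0.254), and Adipor2 was 63.8 ± 4.07 and 66.9 ± 3.30 TPM. Cap1, an actin-binding protein to which resistin can bind, had the lowest estimate of the list, −0.40 (adjusted p = 0.262).

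The cells around fat cells gave the following values. Fibro-adipogenic progenitor and fibroblast genes had 2 higher and 13 lower estimates in Nup210-/- among 15 tested, with a median log2 fold change of −0.29 (−0.15 without Nup210+/+ replicate 3). On scaled TPM 12 of the 15 were highest in Nup210+/+ replicate 3, against 15.8% of all genes. Without overlap, 4 were lower (4.60% of all genes), and also 4 without replicate 3 (6.27% of all genes). At an unadjusted limma p under 0.05, 5 were lower and 0 higher, against 14.2% of all genes. Their most abundant members, Gsn and Dcn, had log2 fold changes of −0.29 and −0.34, and Col1a1 had the lowest, −0.55 (limma adjusted p of 0.407, 0.291 and 0.192). Dlk1, found on precursor cells, had the highest estimate of the list, at 1.43 ± 0.573 TPM in Nup210-/- against 1.16 ± 0.394 TPM in Nup210+/+ (SD, n = 4). Macrophage and leukocyte genes had 12 lower estimates of 12, with a median of −0.49 and groups without overlap for 8 of them, all lower in Nup210-/-, against 4.60% of all genes in that direction. Without Nup210+/+ replicate 3 their median was −0.33 and 8 did not overlap, against 6.27% of all genes lower without overlap. The median was −0.43 without Nup210+/+ replicate 2 and −0.29 without Nup210+/+ replicates 2 and 3 together. Among these genes Lyz2, a lysozyme of macrophages, had a log2 fold change of −0.62 (adjusted p from limma 0.126), Cd74, of antigen-presenting cells, −0.39 (adjusted p = 0.243) and Tyrobp −0.76 (adjusted p = 0.323). With 1 library left out in turn, the range was −0.73 to −0.47 for Lyz2, −0.52 to −0.27 for Cd74 and −0.97 to −0.39 for Tyrobp. Cd68, a lysosomal protein of macrophages, had the highest estimate of the list, at 4.97 ± 0.813 TPM in Nup210-/- against 6.68 ± 2.92 TPM in Nup210+/+ (SD, n = 4). Endothelial genes gave 7 higher and 5 lower estimates of 12 with a median of 0.09, from −0.24 for Cldn5 to 0.41 for Esam. The most abundant were Egfl7 and Gpihbp1, at 39.0 ± 2.82 and 28.4 ± 2.63 TPM in Nup210-/- against 33.4 ± 4.34 and 25.9 ± 6.26 TPM in Nup210+/+ (SD, n = 4). Muscle fiber genes gave 12 higher estimates of 12 with a median of 0.16, among them Acta1 at 0.21 and Myh4 at 0.30 (limma adjusted p of 0.351 and 0.264). The median was 0.07 on TPM as deposited, 0.19 with upper-quartile scaling and 0.04 without Nup210+/+ replicates 2 and 3. At an unadjusted limma p under 0.05, 3 were higher and 0 lower, against 14.2% of all genes. After scaling, 1 was higher without overlap and 0 lower, where 9.38% of all genes did not overlap in either direction. Tnnt3, the troponin T of fast fibers, was 22283 to 23244 TPM in Nup210-/- and 20478 to 22215 TPM in Nup210+/+. Myh7, the myosin of slow fibers, had the lowest estimate, at 97.4 ± 42.1 and 98.6 ± 27.9 TPM (SD, n = 4). None of these genes was called by limma at an adjusted p of 0.05, nor was any of the 6 granulocyte precursor genes or the 2 skin genes tested.

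**Figure D5:**
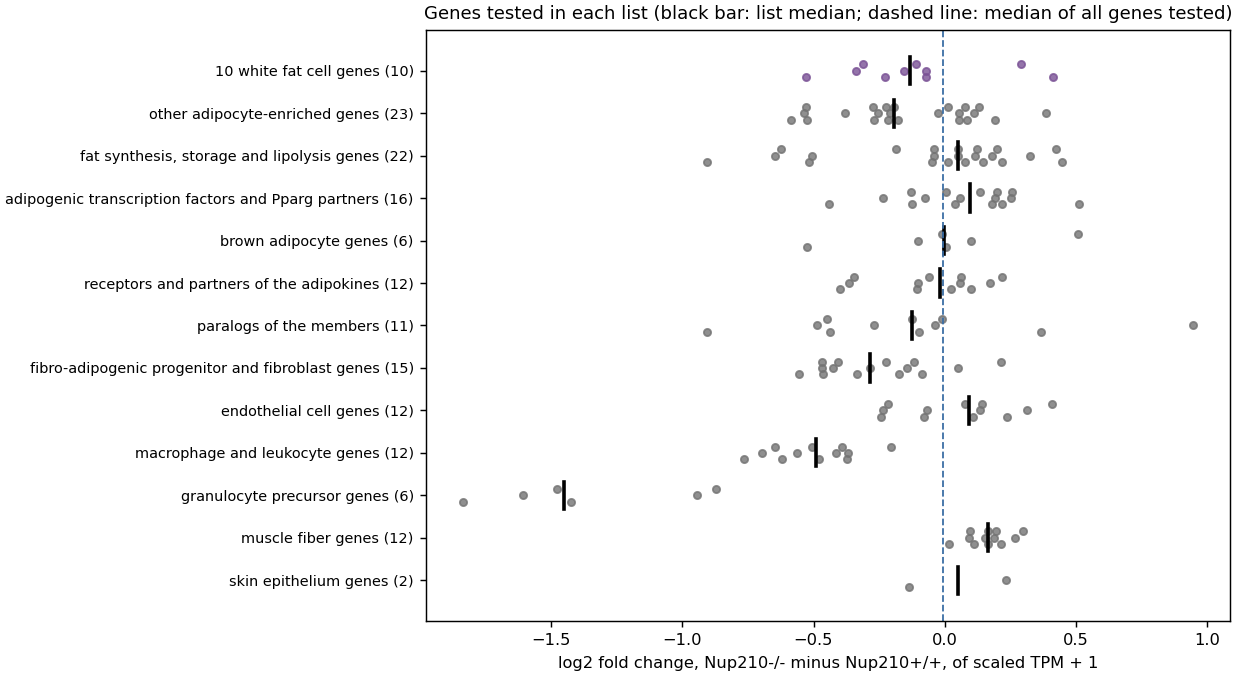
Log2 fold change (Nup210-/- minus Nup210+/+, on log2(scaled TPM + 1)) of each gene tested in the fat cell genes (purple) and 12 other gene lists (gray), 1 point per gene, with a black bar for the list median and a dashed line for the median of all genes tested. The 10 fat cell genes have a median of −0.13, between the macrophage list at −0.49 and the muscle fiber list at 0.16.

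The genes whose levels were most like that of Adipoq across the 8 libraries were sought among the 12661 genes whose TPM averaged 1 or more, by the Pearson correlation of log2(scaled TPM + 1). Of the 10 fat cell genes, Cidec ranked 4, Plin1 8, Retn 15, Fabp4 22, Lep 99 and Cfd 336 in this order, whereas Scd1 ranked 837, Pparg 863 and Plin4 1244. The 10 leading genes outside them were Stard5, Tmem45b, Tgfbr3, Fgf2, Opcml, Echdc1, 4430402I18Rik, Sgce, Pcolce2 and Tusc5, with r from 0.947 to 0.98. All 10 had their highest library at Nup210+/+ replicate 3, and with that library and Nup210-/- replicate 2 left out, the 2 farthest from the median of Adipoq, their r was 0.760 to 0.957. With the same 2 libraries left out, r with Adipoq was 0.910 for Retn, 0.894 for Plin1, 0.851 for Lep, 0.848 for Cidec and 0.667 for Fabp4. It was 0.529 for Scd1, 0.452 for Pparg, 0.225 for Cfd and 0.149 for Plin4. Tusc5, which takes part in insulin-driven glucose uptake by fat cells, was 2.63 to 3.96 TPM in Nup210-/- and 2.37 to 6.19 TPM in Nup210+/+. Among the 45 pairs of the fat cell genes the median r was 0.770 over 8 libraries (0.285 to 0.969) and 0.522 without replicate 3 (−0.346 to 0.922). These correlations are given as a description, with no p, because the libraries share 1 high sample and the genes were chosen for their common cell type or for a high r.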

How the data were processed

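Polyadenylated RNA of quadriceps from 4 Nup210-/- and 4 Nup210+/+ mice was sequenced single-end from directional libraries. The submitters' processing notes name cutadapt 2.3, STAR 2.7.0d, RSEM 1.3.1 and mm10, and the methods name Ensembl 84 annotations. The authors deposited TPM per gene and library for 47643 genes, without pooling. The p-values set a difference between genotypes against the spread between the libraries of these mice, which holds measurement error as well. The counts behind the TPM were not used here, so depth is unknown and no interval is given for a single library. The DESeq2 comparison of the authors needs those counts.

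Libraries were scaled by median-of-ratios factors (0.936 to 1.12) from the 15225 genes above 0 in all of them. log2(scaled TPM + 1) of the 14229 genes averaging 0.5 TPM or more was compared with limma 3.58.1 in R 4.3.3 (intensity trend, genotype as the only term, Benjamini-Hochberg adjustment over all genes tested, threshold 0.05), after the procedure was tested on simulated data. Single values were tested by two-sided exact permutation over 70 labelings. Coordinates are from GENCODE M21 on GRCm38.

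The genes followed, the lists and the tests were chosen with earlier results of these data known. In each list, the genes with the lowest and highest fold change, the 2 with the highest mean TPM and any that passed were named. Plin2, Fabp5, C1qtnf2, Fasn, Acly, Elovl6, Acsl1, Pnpla2, Ucp1 and Cidea were named after their values were seen, and so were the ratios to Adipoq. Of the list symbols, Trarg1 and Pref1 were older or newer names of Tusc5 and Dlk1 and were counted once. Same-numbered libraries of the genotypes did not deviate together (correlations of −0.0329, 0.00537, 0.0192 and 0.0857), and the mice are different animals, so the replicate number was a block only as an alternative. Other alternatives were pseudocounts of 0.1 and 0.5, other filters and scalings, eBayes without trend or robust, library weights and each library left out. Leaving out Nup210+/+ replicates 2 and 3 together and the fat cell level as a term were added after the data were seen. Plots were made in Python 3.11.15 with matplotlib 3.10.9.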

Additional observations from a re-analysis of the deposited data

Results flagged for a closer look

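Dixon's ratio is the gap to the nearest library over the range of the group. In 12 of the 144 groups of 4 libraries examined, 1 library stood far from the other 3, above the 95% limit of this ratio. A rate of 1 in 20 would give about 7.2. Some of these genes were named after their values were seen, so the counts cannot be compared as a test. Among brown fat genes, Ucp1 stood apart in Nup210-/- replicate 2 (4.16 TPM, ratio 0.849) and in Nup210+/+ replicate 3 (8.55 TPM, ratio 1.00), and Cidea in the same libraries (2.68 TPM, ratio 0.837, and 5.64 TPM, ratio 0.985). The granulocyte precursor genes Elane, Ctsg and Cebpe stood apart in Nup210+/+ replicate 2 at 116.7, 105.1 and 13.2 TPM, with ratios of 0.995, 0.997 and 0.986. None of the 10 fat cell transcripts was far enough apart in its own TPM to pass this limit, although Nup210+/+ replicate 3 was the highest for each. Among ratios to Adipoq, Fabp4 stood apart in Nup210+/+ replicate 4, where it was 7.67 against 6.06 in the nearest library of that genotype (Dixon ratio 0.832).

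Other genes stood apart in 1 library each. Plin2 was low in Nup210-/- replicate 1 (37.6 against 43.8 TPM in the nearest library, ratio 0.856), and Mest was high in Nup210+/+ replicate 1 (3.59 against 2.63 TPM, ratio 0.923). Elovl6 was high in Nup210-/- replicate 3 (1.89 against 0.74 TPM, ratio 0.966), as was Rxra (50.9 against 46.7 TPM, ratio 0.932).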

How the results depend on the processing

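None of the 10 fat cell genes passed an adjusted p of 0.05 under any of the alternatives, and their smallest limma adjusted p was 0.0838, for Plin4 without Nup210+/+ replicate 3. The number of genes passing among all tested was 16, with 7 higher and 9 lower in Nup210-/-. It was 1 with any TPM above 0, 0 with a mean TPM of at least 0.1, 27 with a mean TPM of at least 1, 0 with upper-quartile scaling, 0 without the trend, 84 with library weights, 0 to 10 with 1 library left out, 7 without Nup210+/+ replicates 2 and 3 and 35 with the fat cell level as a term. On TPM as deposited the split was 2 higher and 12 lower, and on values rescaled without mitochondrial and top 20 genes 3 higher and 10 lower. With the replicate number as a block it was 0 (888 genes higher and 962 lower at an unadjusted p of 0.05), and for the 10 genes the smallest adjusted p was 0.456. In the fat synthesis list 1 gene, Gpam, passed with library weights, where its log2 fold change was 0.45. Under each pseudocount, filter and scaling, 2 of the 10 genes had higher and 8 lower estimates. Without Nup210+/+ replicates 2 and 3 the log2 fold change was 0.053 for Adipoq, 0.053 for Cfd, 0.10 for Plin1, 0.20 for Cidec, 0.013 for Fabp4 and 0.0047 for Hp, and with the fat cell level as a term it was 0.019 for Plin1 and 0.033 for Cidec, 2 of the genes that make up that term. With 1 library left out in turn, the range was −0.32 to 0.11 for Adipoq, −0.58 to 0.011 for Lep, −0.26 to 0.14 for Plin1, −0.25 to 0.23 for Cidec and −0.25 to 0.11 for Fabp4, and the upper end was without Nup210+/+ replicate 3 in each. For these genes replicate 3 was the highest library, so leaving it out raises the estimate. The cause of the other shifts was not tested. The unknown depth leaves the counting error of low transcripts, such as Ucp1 and Elovl6, without a value.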
